A study of Mus musculus with 12 samples.

Results

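The 10 genes described here make interleukin-1 and its closest relatives, their receptors, and the inflammasome proteins that release them. They were taken by symbol from the 23284 genes counted in each library: the agonists Il1a and Il1b, the antagonist Il1rn, the signalling receptor Il1r1, the decoy receptor Il1r2, the co-receptor Il1rap, the related ligands Il18 and Il33, the sensor Nlrp3 and the protease Casp1. Polyadenylated RNA from spleen and axillary lymph node was sequenced in mice deficient for both apoE and apoA-I (DKO) and in DKO mice that overexpress human apoA-I (DKO/hA-I). The animals ate normal laboratory diet up to the age of 30 weeks, and each of the 4 groups holds 3 libraries. By their labels all groups lack mouse apoE and apoA-I, so no wild-type or apoE-deficient mouse enters a comparison. The labels do not name the promoter behind the human transgene, the strain background or the sex of the animals. Spleens and nodes carry different animal codes and were not taken as pairs.

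Interleukin-1 alpha and beta bind Il1r1, which then recruits Il1rap to pass the signal on through MyD88. Il1rn, the interleukin-1 receptor antagonist, occupies Il1r1 without recruiting Il1rap, and Il1r2 binds the agonists but has no signalling domain, so both restrain the pathway. Interleukin-1 beta and interleukin-18 are made as inactive precursors that caspase-1 cuts once a sensor such as NLRP3 has assembled an inflammasome, whereas interleukin-33 is released by damaged stromal and barrier cells and acts through another receptor, Il1rl1. RNA levels show neither precursor cleavage nor secretion.

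The members lie in several places of the mouse genome (GENCODE vM21 on GRCm38, all protein-coding). The agonists Il1a (chromosome 2, 129299610 to 129309972, minus strand) and Il1b (chromosome 2, 129364570 to 129371139, minus strand) are neighbours with 54597 bases between them. Il1rn lies on the same chromosome, at 24336853 to 24351494 on the plus strand. Il1r2 (chromosome 1, 40074079 to 40125231) and Il1r1 (chromosome 1, 40225080 to 40317257) open a run of receptor genes on the plus strand that goes on with Il1rl2, Il1rl1, Il18r1 and Il18rap. Nlrp3 lies on chromosome 11, at 59541568 to 59566956. Il1a, Il1b, Il1r2, Il1rap and Il18 each overlap an annotated gene on the opposite strand, and Il1r1 and Il1r2 each overlap one on the same strand. No source used here states whether counting used strand, so reads of the opposite-strand partners cannot be told apart. Strand would not separate those of the same-strand partners.

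The sequences before the start sites of the 2 agonists and of the 3 members called in lymph node are shown to let their promoters be compared. Each is the 250 bases upstream of a RefSeq start (GRCm38.p6), with capitals marking a match to a motif searched on both strands.
Il1a (chr2:129309973-129310222, minus strand): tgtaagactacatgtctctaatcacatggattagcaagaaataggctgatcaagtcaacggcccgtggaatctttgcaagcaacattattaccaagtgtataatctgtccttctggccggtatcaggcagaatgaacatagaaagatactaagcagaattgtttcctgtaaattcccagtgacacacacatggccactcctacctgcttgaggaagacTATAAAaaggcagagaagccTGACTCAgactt
Il1b (chr2:129371140-129371389, minus strand): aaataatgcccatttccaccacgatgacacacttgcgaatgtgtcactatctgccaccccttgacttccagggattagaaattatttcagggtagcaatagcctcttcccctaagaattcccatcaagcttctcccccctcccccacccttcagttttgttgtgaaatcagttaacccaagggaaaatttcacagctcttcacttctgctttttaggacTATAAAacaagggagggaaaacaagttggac
Il1rn, the first of 3 starts (chr2:24336610-24336859, plus strand): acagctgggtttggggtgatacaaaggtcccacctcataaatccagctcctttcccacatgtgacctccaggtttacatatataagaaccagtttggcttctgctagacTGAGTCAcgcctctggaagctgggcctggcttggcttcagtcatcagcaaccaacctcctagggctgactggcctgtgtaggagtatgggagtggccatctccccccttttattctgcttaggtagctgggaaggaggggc
Il1r2 (chr1:40085843-40086092, plus strand): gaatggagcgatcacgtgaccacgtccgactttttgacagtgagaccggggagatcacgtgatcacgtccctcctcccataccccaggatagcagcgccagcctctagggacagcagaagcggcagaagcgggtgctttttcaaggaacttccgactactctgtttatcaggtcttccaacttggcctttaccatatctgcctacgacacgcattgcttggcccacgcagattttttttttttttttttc
Nlrp3, the first of 2 starts (chr11:59541319-59541568, plus strand): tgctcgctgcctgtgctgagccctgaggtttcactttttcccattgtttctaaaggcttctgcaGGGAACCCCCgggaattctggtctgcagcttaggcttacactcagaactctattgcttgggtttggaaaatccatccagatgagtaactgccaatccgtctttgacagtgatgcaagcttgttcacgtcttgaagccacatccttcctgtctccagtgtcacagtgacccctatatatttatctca
The capitals are TATAAA in Il1a and Il1b, at 32 and 31 bases before the start, the AP-1 motif TGANTCA in Il1a at 12 bases and in Il1rn at 141 bases, and the NF-kB motif in Nlrp3 at 186 bases. The other Il1rn starts held no AP-1 match, and the other Nlrp3 start held no match to any motif searched. Which start is used in these tissues was not tested. Il1r2 held none of the 4 motifs searched, which included the C/EBP motif TTGCNNAA; its RefSeq start lies inside the longer GENCODE gene. Over windows running from 250 bases before to 50 after a start, TATAAA occurred in 13.6% of 32851 mouse promoters, TGANTCA in 7.81%, TTGCNNAA in 10.8% and the NF-kB motif in 8.46%. Among the 15 windows of the 10 members, 6 held TATAAA and 2 held each of the other motifs. Windows of the same gene were counted separately. Besides Il1a and Il1b, TATAAA lay 203 and 29 bases before the 2 Il33 starts and 175 bases before that of Il18. It also lay 14 bases after the last Il1rn start, and the Il18 and Il1rn matches were on the opposite strand. A match is a string of letters here and was not tested for binding.

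Library totals ran from 5911835 counts in DKO node replicate 2 to 11950825 in DKO node replicate 3, with spleens between 8966001 and 11237680. Mouse Apoa1 had 0 to 13 counts and Apoe 51 to 202 counts in any library; the labels do not say which part of either gene was deleted, so these reads do not check the deletions. The pseudogene Rpl31-ps12 went against a simple reading of the labels: it had 347 to 1002 counts in DKO nodes and 1 count in each DKO/hA-I node, but 1 to 2 counts in spleens labelled DKO and 597 to 789 in spleens labelled DKO/hA-I. The groups are named as labelled throughout. Every direction between genotypes, and every tissue comparison within a genotype, rests on those labels. All DKO nodes carry the same middle number in their animal code, 75, whereas the DKO/hA-I nodes carry 76, 77 and 78, so genotype and whatever that number marks cannot be told apart in lymph node. Spleens carry middle numbers from 55 to 57, so spleens and nodes share none. Every contrast of spleen with node is thus also a contrast of these code numbers, and the design offers no way to separate them. Levels are counts scaled to library size (CPM) on the TMM scale with SD over n = 3. A gene is called at a Benjamini-Hochberg adjusted p under 0.05 in edgeR's quasi-likelihood test.

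In the lymph node, which asks what changes where human apoA-I is absent, the antagonist Il1rn, the decoy receptor Il1r2 and the sensor Nlrp3 were higher in the DKO group. These were 3 of the 10 members, against 6.87% of the 14012 genes tested that were called and 3.95% called higher. Neither agonist was called in this fit, though Il1a was called in 2 of 6 alternative fits. All 10 log2 fold changes were above 0, with a median of 0.75 against 0.01 over all genes tested, and the groups did not overlap for 5 members, against 15.6% of all genes that were higher without overlap.

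**Figure D1:**
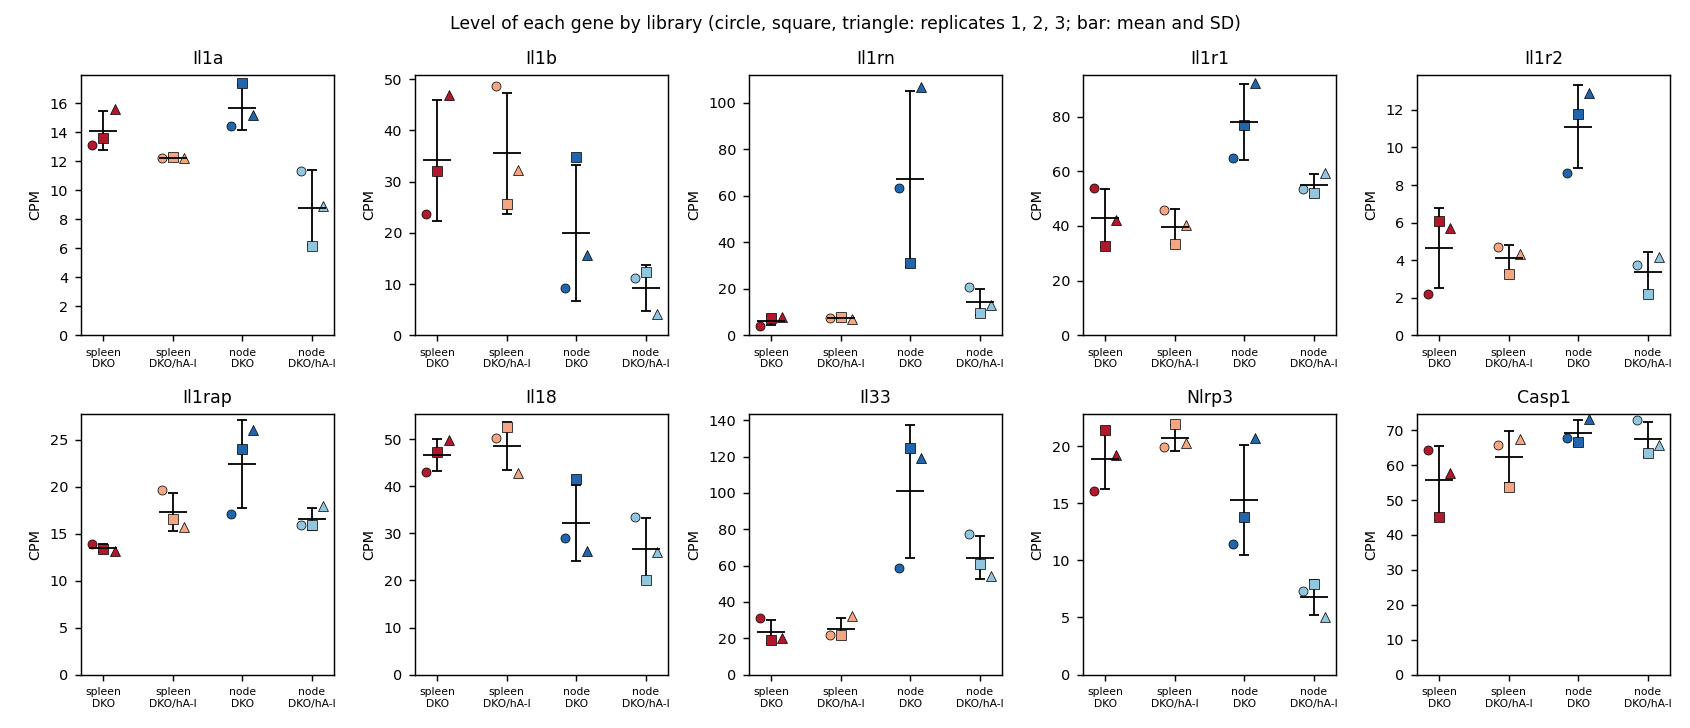
Level of each of the 10 genes in CPM (vertical axis, from 0) in the 12 libraries, grouped by tissue and genotype; each point is a library and the bar is the mean with its SD. Il1rn and Il1r2 stand highest in the 3 DKO nodes, while the spleen groups lie close together for most genes.

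Of the agonists, Il1a stood at 14.4, 17.4 and 15.2 CPM in DKO nodes and at 11.3, 6.15 and 8.93 CPM in DKO/hA-I nodes. The groups did not overlap, yet the log2 fold change of 0.84 ± 0.24 (SE) missed the threshold in edgeR's test (adjusted p = 0.0809). Il1a was called in 2 of 6 alternative fits, with DESeq2 and in the fit of all 12 libraries. It was called in no omission of a single node. Il1b was measured at 9.27, 34.9 and 15.7 CPM in DKO nodes and at 11.2, 12.4 and 4.09 CPM in DKO/hA-I nodes. Its groups overlapped, because DKO replicate 1 lay below 2 of the DKO/hA-I nodes and DKO replicate 2 stood far above every other node. The log2 fold change of Il1b was 1.10 ± 0.55 (edgeR, adjusted p = 0.264), and it was 0.44 without DKO replicate 2.

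Il1rn showed the largest fold change of the 10 members in lymph node. It stood at 63.4, 31.2 and 107 CPM in DKO nodes and at 20.7, 9.67 and 12.8 CPM in DKO/hA-I nodes. Every DKO node was above every DKO/hA-I node, and the DKO nodes differed among themselves more than the DKO/hA-I nodes did. The antagonist was 4.73-fold higher in DKO, a log2 fold change of 2.24 ± 0.46 (edgeR, adjusted p = 0.0335). Leaving out 1 node at a time gave log2 fold changes of 1.72 to 2.59 with adjusted p from 0.011 to 0.132, and the call was kept only without DKO replicate 2.

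Among the receptors, the decoy Il1r2 was called. Il1r2 stood at 8.64, 11.8 and 12.9 CPM in DKO nodes and at 3.72, 2.17 and 4.19 CPM in DKO/hA-I nodes, from 70 to 146 counts and 24 to 40 counts per library. The lowest DKO node was above the highest DKO/hA-I node, and the fold was 3.34 (log2 1.74 ± 0.30, edgeR adjusted p = 0.0211). Without DKO replicate 3, DKO/hA-I replicate 1 or DKO/hA-I replicate 2 the adjusted p was 0.0825, 0.0726 or 0.0755, with log2 fold changes of 1.50 to 1.91 over all 6 omissions.

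The signalling receptor Il1r1 stood at 64.8, 76.8 and 92.4 CPM in DKO nodes and at 53.4, 52.2 and 59.5 CPM in DKO/hA-I nodes. These groups did not overlap either, but the log2 fold change was 0.52 ± 0.16 and was not called (edgeR, adjusted p = 0.0902). The co-receptor Il1rap, at 22.4 ± 4.68 against 16.6 ± 1.13 CPM, was not called and its groups overlapped (log2 fold change 0.44 ± 0.19).

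The related ligands were not called in the node. Il33, the alarmin of stromal cells, stood at 58.8, 125 and 119 CPM in DKO and at 77.6, 60.8 and 54.5 CPM in DKO/hA-I, so that DKO replicate 1 fell among the DKO/hA-I nodes (log2 fold change 0.66 ± 0.29, edgeR adjusted p = 0.2). Il18, which caspase-1 activates, stood at 32.3 ± 8.13 against 26.6 ± 6.76 CPM.

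Of the inflammasome genes, the sensor differed and the protease did not pass the test. Nlrp3 stood at 11.4, 13.8 and 20.7 CPM in DKO nodes and at 7.34, 7.96 and 5.05 CPM in DKO/hA-I nodes, with no overlap. The fold was 2.28 (log2 1.19 ± 0.28) at an edgeR adjusted p of 0.0487, and leaving out 1 node at a time gave log2 0.89 to 1.34 with adjusted p of 0.0258 to 0.157, called only without DKO replicate 2. Casp1 stood at 69.2 ± 3.55 against 67.4 ± 4.96 CPM, a log2 fold change of 0.05 ± 0.11 (edgeR, adjusted p = 0.819).

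The count of members called in lymph node rests on most of the single libraries. It stayed at 3 when DKO replicate 2 was left out, dropped to 1 for DKO replicate 1 or DKO/hA-I replicate 3, and dropped to 0 for DKO replicate 3 and for DKO/hA-I replicates 1 and 2. The authors' deposited table calls Il1rn (q = 1.82e-07) and Il1r2 (q = 0.0074) among the 10 in lymph node, with Nlrp3 at q = 0.0851 and Il1b at q = 0.0933. It calls none of the 10 in spleen. In the present tests Nlrp3 also missed the threshold with DESeq2's size factors (adjusted p = 0.0501 in edgeR), limma voom (0.0644) and the title number as replicate block (0.12), and Il1rn missed it with no filter on low counts (0.0568).

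**Figure D2:**
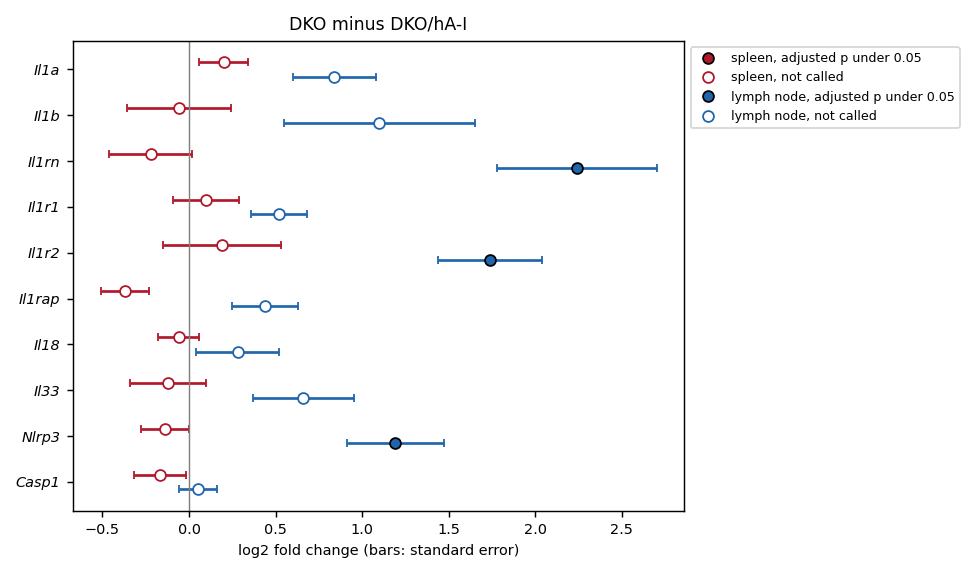
Log2 fold change of each gene (horizontal axis) between DKO and DKO/hA-I in spleen and in lymph node; bars are standard errors and filled points are called at an adjusted p under 0.05. The lymph node points of Il1rn, Il1r2 and Nlrp3, at 2.24, 1.74 and 1.19, are filled, and no spleen point is.

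Several marker lists also differed between the node groups, where 3.95% of all genes tested were called higher in DKO and 2.92% lower. Summed levels of 10 lipid-laden macrophage markers (Trem2, Gpnmb, Spp1 and others) were 7061, 1902 and 9844 CPM in DKO replicates 1 to 3 and 799 to 1039 CPM in DKO/hA-I nodes, and 9 of 10 were called higher in DKO. The 9 neutrophil markers found summed to 233, 1332 and 467 CPM in DKO and 117 to 258 CPM in DKO/hA-I, with 2 of 9 called higher. The 9 macrophage markers found, 5 of 9 called higher, summed to 2997, 2016 and 4450.4 CPM in DKO and 901 to 1245 CPM in DKO/hA-I. Over the 3 DKO nodes Il1rn stood in the same order as the lipid-laden macrophage markers, but also as the macrophage, conventional dendritic cell and regulatory T cell markers. The dendritic cell list shares Itgax with the lipid-laden macrophage list. Itgax ran from 144 to 831 CPM in DKO nodes, where the dendritic cell list summed to 313 to 1176 CPM, so those orders are not independent. None of these 4 lists stood in the order of Il1rn over the DKO/hA-I nodes. There Il1rn was 20.7, 9.67 and 12.8 CPM in replicates 1 to 3, and lipid-laden macrophage markers summed to 1005, 1039 and 799 CPM. Over the 3 DKO nodes Il1b stood in the same order as the neutrophil and the monocyte markers. DKO replicate 2 thus had the highest Il1b, the lowest Il1rn of its group and the most neutrophil marker RNA. Neither order of Il1b held over the DKO/hA-I nodes. There Il1b was 11.2, 12.4 and 4.09 CPM in replicates 1 to 3. Neutrophil markers summed to 258, 153 and 117 CPM and monocyte markers to 686, 445 and 508 CPM.

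Reticular stroma markers, 6 of 10 called higher and 8 of 10 with fold changes above 0, summed to 1757 to 2703 CPM in DKO nodes and 1109 to 1248 CPM in DKO/hA-I nodes. Of that list Ccl21a ran from 108 to 259 CPM in DKO against 167 to 356 CPM, and Ccl19 from 102 to 115 CPM against 92.6 to 149 CPM. Adipocyte markers, all 10 called lower in DKO, ran from 212 to 228 CPM against 818 to 2595 CPM. B cell markers ran from 1856 to 2847 CPM against 3118 to 3564 CPM with none of 7 called. No adipocyte, neutrophil or macrophage marker on the lists was at 0 throughout the nodes, whereas the skin keratin markers Krt5 and Krt14 were at 0 in all nodes. The part of these cell types in the levels of Il1rn, Il1r2, Nlrp3 and Il1b was not tested, and in bulk RNA fewer cells of a type and less RNA per cell cannot be told apart.

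**Figure D3:**
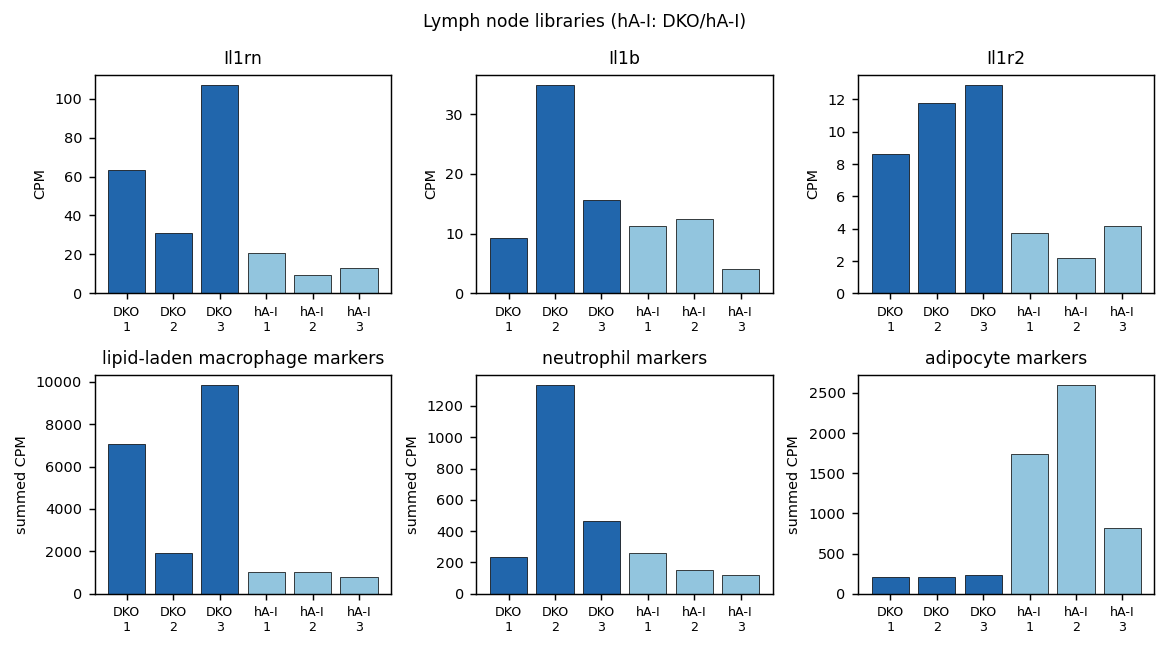
Il1rn, Il1b and Il1r2 in CPM (upper row) and summed CPM of lipid-laden macrophage, neutrophil and adipocyte markers (lower row) in the 6 lymph node libraries; each bar is a library and starts at 0. Il1rn peaks at 107 CPM in the DKO node with the most lipid-laden macrophage marker RNA (9844 CPM), and Il1b at 34.9 CPM in the one with the most neutrophil marker RNA (1332 CPM). Among the DKO/hA-I nodes neither gene is highest in the node with the most of those markers.

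In the spleen, none of the 10 members was called between the genotypes. Of all 14009 genes tested 0.00714% were called, which is the single gene Rpl31-ps12; at an unadjusted p under 0.05 there were 617 genes, 1 of them a member. The count over all genes rose to 515 with the middle number of the animal code as a block and to 167 without DKO replicate 1, with no member called in either. DKO replicate 1 is the only spleen with middle number 56. With that block it does not inform the genotype difference, so the 2 settings are not separate checks. DESeq2 and limma voom called no member either. Fold changes were above 0 for 3 members and below 0 for 7, with a median log2 value of -0.09 against 0.01 over all genes.

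Il1rn, so different between the nodes, stood at 3.98, 7.33 and 7.70 CPM in DKO spleens and at 7.33, 7.69 and 7.15 CPM in DKO/hA-I spleens. The antagonist was low in all 6 spleens and its groups overlapped (log2 fold change -0.22 ± 0.24, edgeR adjusted p = 0.929). Il1b stood at 23.6, 32.1 and 46.9 CPM against 48.7, 25.7 and 32.2 CPM. Both groups span nearly the same range, and the log2 fold change was -0.06 ± 0.30.

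Il1r2 stood at 2.21, 6.06 and 5.70 CPM in DKO spleens and at 4.68, 3.27 and 4.31 CPM in DKO/hA-I spleens, with DKO replicate 1 the lowest of the 6. Nlrp3 stood at 18.9 ± 2.65 against 20.7 ± 1.15 CPM. The spleen groups did not overlap for 2 members, against 10.6% of all genes. Il1a was 13.1, 13.6 and 15.6 CPM in DKO against 12.2, 12.3 and 12.2 CPM, and Il1rap was 13.9, 13.4 and 13.1 CPM in DKO against 19.6, 16.6 and 15.7 CPM. Il1rap, the co-receptor, had the lowest unadjusted p of the 10 (0.0256; log2 fold change -0.37 ± 0.14, edgeR adjusted p = 0.929).

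The genotype effect itself was compared between the tissues, whose code numbers differ, in 1 fit of all 12 libraries. With the spleens as labelled it was larger in lymph node for Il1rn, by 2.44 ± 0.57 on the log2 scale (edgeR, adjusted p = 0.0385), and for Nlrp3, by 1.31 ± 0.32 (edgeR, adjusted p = 0.0441). These 2 of 10 members compare with 3.33% of 14608 genes called and 2.04% called higher. Il1r2, called in the node alone, was not shown to differ between tissues (1.53 ± 0.49, edgeR adjusted p = 0.119), and neither was Il1rap (0.79 ± 0.23, edgeR adjusted p = 0.088).

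Both calls depended on single libraries and on the tool. Of the 12 omissions of a single library, 3 kept the call for Il1rn and 2 that for Nlrp3, with log2 differences of 1.95 to 2.78 and 1.02 to 1.50. Neither gene was called with limma voom (adjusted p = 0.0948 and 0.0668) or with the title number as replicate block (0.0598 and 0.0747), while DESeq2 called both. Since Rpl31-ps12 ran opposite ways in the tissues, the contrast was also taken with the sign of the spleen difference turned, an alternative chosen after the data were seen. Neither gene was then called (Il1rn 2.01, edgeR adjusted p = 0.0618, and Nlrp3 1.05, 0.0762), whereas Il1r2 (1.92, 0.0435) and Il1a (1.03, 0.0494) were. Which members are called here thus depends on whether the genotype labels of spleen and node run the same way. Rpl31-ps12 does not show which tissue's labels would be turned.

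Between tissues, which also differ in code number, spleen and lymph node held different mixtures of the pathway. In DKO mice 5 of 10 members were called and all were higher in lymph node, against 22.8% of all genes called and 11.3% called higher. They were Il1rn at 67.1 ± 37.9 against 6.34 ± 2.05 CPM (10.6-fold, log2 3.40 ± 0.42), Il33 at 101 ± 36.7 against 23.4 ± 6.58 CPM (4.32-fold, log2 2.11 ± 0.29), and the 3 receptor genes. Il1r2 was 2.36-fold higher, Il1r1 1.82-fold higher and Il1rap 1.66-fold higher in the DKO node, and of the 5 only Il1r2 lost its call in any omission of a single library (adjusted p up to 0.0687 in edgeR, 1 of 6 omissions). Il1b was 20.0 ± 13.3 CPM in node and 34.2 ± 11.8 CPM in spleen and was not called (log2 -0.81 ± 0.46, edgeR adjusted p = 0.238).

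In DKO/hA-I mice 4 of 10 members were called, against 25.7% of all genes; 1 was higher in lymph node, against 11.8%, and 3 were lower, against 14.0%. Il33 was 64.3 ± 11.9 CPM in node and 25.3 ± 5.82 CPM in spleen (2.54-fold higher, log2 1.35 ± 0.28). Il1b stood at 9.21 ± 4.48 CPM in node and 35.5 ± 11.9 CPM in spleen, 3.83-fold lower in node (log2 -1.94 ± 0.48, edgeR adjusted p = 0.00914).

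Nlrp3 was 3.04-fold lower in the DKO/hA-I node than in spleen, at 6.78 ± 1.53 against 20.7 ± 1.15 CPM (log2 -1.60 ± 0.23). Il18 was 1.83-fold lower, at 26.6 ± 6.76 against 48.6 ± 5.17 CPM (log2 -0.87 ± 0.20). The difference between the genotypes in these tissue contrasts is the same contrast as above, called for Il1rn and Nlrp3. Il1rn (log2 0.96 ± 0.41) and Il1r1 (0.47 ± 0.19) were also higher in the DKO/hA-I node without overlap but not called (edgeR adjusted p = 0.105 and 0.0888), and both were called in a fit of the 6 DKO/hA-I libraries alone (0.0164 and 0.0174). Il1b, Il18, Nlrp3 and Il33 kept their calls in each of the 6 omissions of a library. In the same DKO/hA-I mice neutrophil markers summed to 636 to 1487 CPM in spleen and 117 to 258 CPM in node, with 8 of 9 called lower in node, and their part in the tissue difference was not tested. Casp1 was called between tissues in neither genotype (log2 0.31 ± 0.14 in DKO and 0.11 ± 0.14 in DKO/hA-I).

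**Figure D4:**
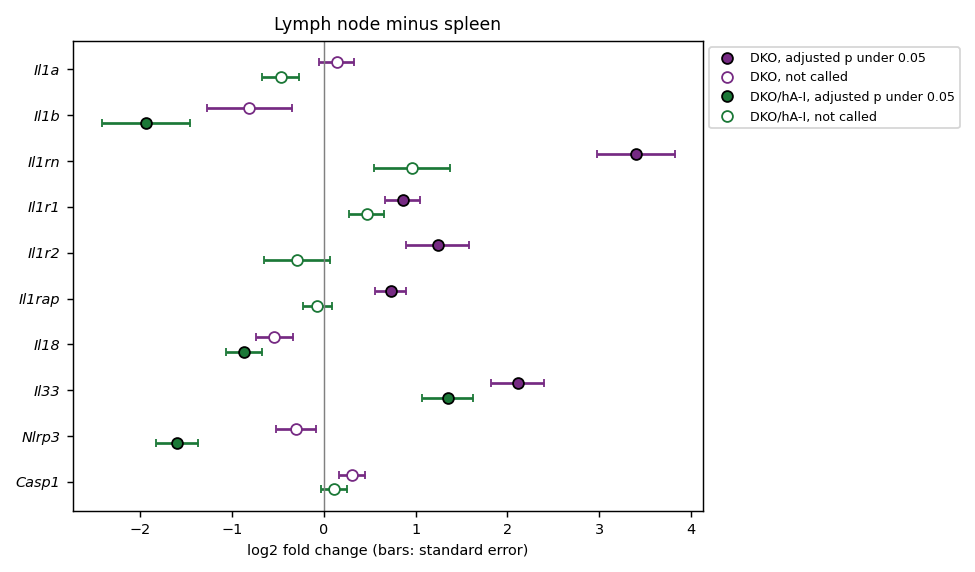
Log2 fold change of each gene between lymph node and spleen (horizontal axis, above 0 is higher in node) in DKO and in DKO/hA-I mice; bars are standard errors and filled points are called. Il33 is filled on the right in both genotypes, Il1rn reaches 3.40 in DKO, and Il1b (-1.94), Nlrp3 (-1.60) and Il18 (-0.87) are filled on the left in DKO/hA-I.

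The balance of agonist to antagonist was measured as a ratio within each library, where library scaling cancels. Divided by the summed exon length of each gene, the ratio of Il1b to Il1rn was 17.1, 12.6 and 17.6 in DKO spleens and 19.2, 9.64 and 13.0 in DKO/hA-I spleens. It was 0.426, 3.25 and 0.428 in DKO nodes and 1.56, 3.71 and 0.935 in DKO/hA-I nodes. Every node was below every spleen, and the ratio was below 1, with more Il1rn than Il1b RNA per length, in 3 nodes, 2 of them DKO. The length is the union of all annotated exons, 5535 bases for Il1rn and 1907 for Il1b. In plain counts the ratio was 0.147, 1.12 and 0.148 in DKO nodes and 0.539, 1.28 and 0.322 in DKO/hA-I nodes. Which nodes lie below 1 thus depends on that length.

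The log2 ratio of Il1b to Il1rn differed between node and spleen by -3.57, or 11.9-fold lower in node, in an exact two-sided permutation test of tissue within genotype (p = 0.005, the smallest this design allows, and 0.0225 adjusted over the 9 ratio tests). For Il1a to Il1rn the tissue difference was -2.27 on the log2 scale, or 4.81-fold lower in node (exact permutation p = 0.005, adjusted 0.0225). The per-length ratio of Il1a to Il1rn ran from 4.48 to 9.18 in spleens and from 0.4 to 1.96 in nodes. Both tissue differences are also differences between the code numbers of spleens and nodes. In neither genotype were both genes of either ratio called between tissues: Il1rn was called in DKO, Il1b in DKO/hA-I and Il1a in neither.

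Between genotypes the ratios could not pass the threshold, since 3 against 3 libraries allow no exact p below 0.1. In node the mean log2 ratio of Il1b to Il1rn was -1.79 ± 1.69 (SD) in DKO and -0.72 ± 1.01 in DKO/hA-I, with overlapping groups (exact permutation p = 0.3). That of Il1a to Il1rn was -1.93 ± 1.00 and -0.68 ± 0.18, again overlapping (exact permutation p = 0.2). In spleen the ratio of Il1a to Il1rn lay the other way, at 1.20 ± 0.44 in DKO and 0.72 ± 0.05 in DKO/hA-I with no overlap (difference 0.48, exact permutation p = 0.1, the smallest possible, and 0.225 adjusted), and that of Il1b to Il1rn overlapped (exact permutation p = 0.7).

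The ratio of the decoy Il1r2 to the signalling receptor Il1r1 was compared in the same way. Per length it was 0.447, 0.516 and 0.466 in DKO nodes and 0.235, 0.141 and 0.238 in DKO/hA-I nodes, 2.39-fold apart with no overlap (exact permutation p = 0.1, the smallest possible, and 0.225 adjusted). In spleen it ran from 0.14 to 0.625 in DKO and from 0.332 to 0.361 in DKO/hA-I, and the groups overlapped. Between tissues this ratio did not pass the test (log2 -0.16, exact permutation p = 0.725).

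**Figure D5:**
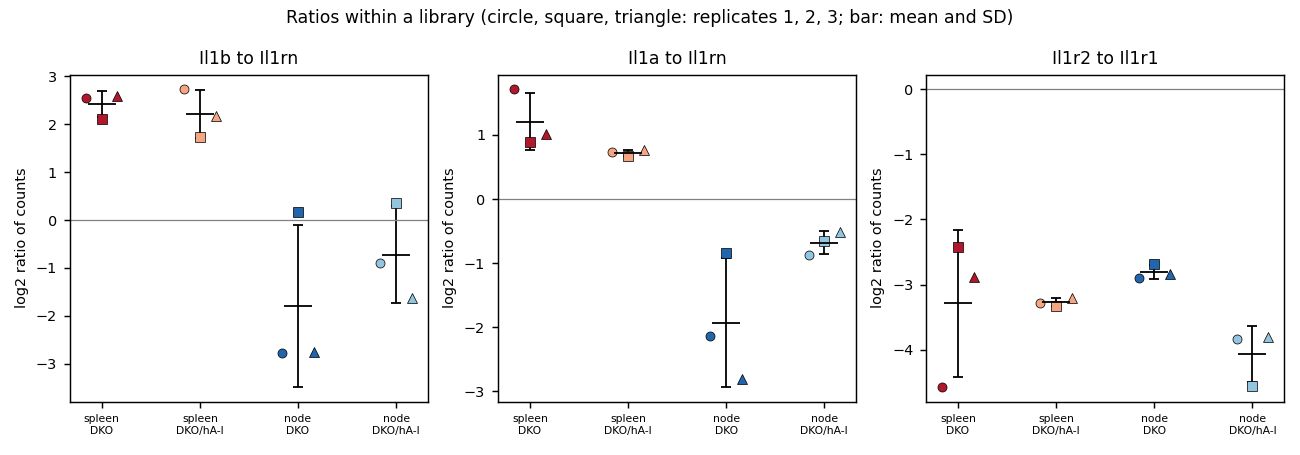
Log2 ratio of counts within each library (vertical axis) for Il1b to Il1rn, Il1a to Il1rn and Il1r2 to Il1r1 by tissue and genotype; points are libraries and bars are the mean with its SD. The agonist ratios of all nodes lie below those of all spleens, and the Il1r2 to Il1r1 ratio separates the DKO from the DKO/hA-I nodes.

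Set against each other as CPM per kilobase of exon, the members kept a similar order in the 2 spleen groups. The order of members depends on that exon length, the union over all annotated transcripts. Il18 (45.3 in DKO and 47.1 in DKO/hA-I) and Casp1 (37.2 and 41.6) led and overlapped each other, followed by Il1b (17.9 and 18.7), while Il1rn (1.14 and 1.33) came last with a range that overlapped that of Il1rap. In DKO nodes Casp1 led at 46.2, above Il33 at 35.0 and Il18 at 31.3, which overlapped. Il1r1 at 12.3, Il1rn at 12.1 and Il1b at 10.5 followed with ranges that overlapped from each to the next. In DKO/hA-I nodes Il1rn stood at 2.60 CPM per kilobase and overlapped Il1a at 4.46 and Il1r2 at 1.76.

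Other genes of the pathway were read from 4 lists. Among 7 tested of 11 further ligands, receptors and binding proteins, 2 were called in lymph node, both higher in DKO, beside 6.87% of all genes called and 3.95% called higher. Il18bp, which encodes the secreted protein that neutralises interleukin-18, stood at 73.5 ± 19.6 against 25.8 ± 5.77 CPM (log2 1.53 ± 0.24, edgeR adjusted p = 0.017). Il1rl1, the receptor of interleukin-33, stood at 25.8 ± 9.23 against 11.8 ± 0.799 CPM (log2 1.15 ± 0.25, edgeR adjusted p = 0.04). The genotype effect on Il18bp was also larger in node than in spleen (1.47 ± 0.29, edgeR adjusted p = 0.0171), whereas that on Il1rl1 was not called (0.87 ± 0.45). The median over the 7 was 0.49 against 0.01 over all genes.

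Of 19 other inflammasome genes tested, 1 was called in node, a share below the 6.87% of all genes, and it was Naip2, a sensor partner of Nlrc4, at 67.2 ± 7.47 against 44.6 ± 5.19 CPM (log2 0.60 ± 0.14, edgeR adjusted p = 0.0441). The median over the 19 was 0.17. None of the 16 adapters and kinases that carry the receptor signal was called in node (median log2 -0.05), the lowest unadjusted p being that of Ikbkb, a kinase of the NF-kB pathway (log2 -0.37 ± 0.17). Of 10 tested of 15 genes commonly induced by interleukin-1, none was called either (median 0.34). Saa3, an acute-phase protein, stood at 11.4 ± 14.6 against 0.566 ± 0.637 CPM (edgeR adjusted p = 0.092) and the chemokine Ccl2 at 20.4 ± 7.03 against 9.39 ± 4.10 CPM (edgeR adjusted p = 0.0954). In spleen no gene of the 4 lists was called, with medians of -0.17, -0.15, -0.02 and 0.15 in the order of ligands and receptors, inflammasome genes, adapters and induced genes.

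The genes whose levels followed each member most closely were taken as the 3 of highest Pearson r of log2 CPM over the 12 libraries, among 13126 genes; the libraries share tissue and genotype, so r is a description. Il1rn was closest to Gla (r = 0.99), Ccl9 (0.98) and Clec7a (0.98), and with group means removed these were 0.92, 0.86 and 0.87. Il1b was closest to Exo1 (0.96), Mcm10 (0.95) and Rad54b (0.95). Il1r2 was closest to Pvt1 (0.94), Nlrp3 to Gpr153 (0.97), Il1a to Fcgr4 (0.97) and Il33 to Tnfrsf23 (0.97). No gene of these lists was itself one of the 10 members.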

How the data were processed

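The authors deposited 1 table per tissue with raw read counts for 23284 gene symbols in each library, per the file headers. The same tables hold the authors' p-value and q-value of their own comparison; their group expression values and log2 ratios were not used here. The submitters' processing notes name Trimmomatic, Bowtie, TopHat, Cuffdiff and GRCm38; no source used here names the counting program, its strand setting or the annotation. The genes and lists were chosen with earlier results of these data known, and support no test over a list.

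Gene tests used edgeR 4.0.16 under R 4.3.3 (filterByExpr, minimum count 10 and total 15, TMM, robust quasi-likelihood fit), with Benjamini-Hochberg adjustment over all genes that passed; all 10 members passed in both tissues. Genotypes were compared within the 6 libraries of a tissue, and tissues and the difference of genotype effects in all 12. Ratios used log2 of counts plus 0.5 and exact permutation tests. Alternatives were DESeq2 1.42.0, limma 3.58.1 (voom), other size factors, no filter, replicate blocks, omission of each library and, chosen after seeing the data, the spleen difference with its sign turned. Steps were checked on simulated counts. No label says that libraries came from separate animals beyond their animal codes, so a p-value here covers the spread of libraries, which may be technical. Within groups, library pairs differed by 9.52 to 56.5 times the Poisson expectation, so none was a copy. Symbols were matched to GENCODE vM21 (20911 of 23284), and promoters to RefSeq tables (all 10 members). The named genes are the 10 members, up to 4 called genes per list and comparison (otherwise up to 2 of lowest p), and 3 similar genes per member, of which the text gives some.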

Additional observations from a re-analysis of the deposited data

Results flagged for a closer look

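The genotype effect on Il1rn was larger in lymph node than in spleen by 2.44 on the log2 scale, and that on Nlrp3 by 1.31. Both were marked because edgeR's test of the difference between the tissues passed an adjusted p of 0.05 (0.0385 and 0.0441). Every one of the 3 DKO nodes was above every DKO/hA-I node for both genes, while the spleen groups overlapped for both. With the sign of the spleen difference turned, the values were 2.01 and 1.05 and neither was called. Lipid-laden macrophage markers moved in the same direction, with 9 of 10 called higher in DKO nodes and 9 of 10 in the difference between tissues. The shares of all genes called higher were 3.95% and 2.04%. The part of these markers in either result was not tested.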

How the results depend on the processing

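With the title number as replicate block 438 genes were called in lymph node and 299 in the difference between tissues, against 962 and 487, and with the animal code as replicate block 515 genes were called in spleen against 1. Same-numbered libraries did not deviate together (r from -0.14 to 0.12), so the numbers were not taken as pairs; spleens of the same code number gave r of 0.12, 0.01 and 0.21. The replicate block left 2 members called in node, Il1rn and Il1r2, and 0 in the difference between tissues. For that difference the members called were 1 with no filter, 4 with DESeq2, 0 with limma voom and 0 to 3 when a library was left out, against 2. The genes called there were 973 with DESeq2, 253 with limma voom and 179 to 1160 when a library was left out, and 753 with the sign of the spleen difference turned, an alternative chosen after seeing the data, under which Casp1 stood at -0.12. In lymph node DESeq2 called 1967 genes and 4 members, and the fit of all 12 libraries 2253 genes and 4 members. Il1a was the added member in both. Leaving out a library gave 115 to 2245 genes and 0 to 3 members. In spleen DESeq2 called 5 genes and omissions gave 1 to 167, with no member called under any of them. In DKO mice, 2204 genes were called between tissues in the fit of 6 libraries, against 3325, and in DKO/hA-I mice 4540 against 3760. The causes were not tested.

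Signs turned only for uncalled values. In spleen with the animal code block the log2 fold change was 0.04 for Il1b, 0.01 for Il1rn and -0.16 for Il1r1. Leaving out a library gave -0.36 to 0.24 for Il1b, -0.39 to 0.01 for Il1rn, -0.10 to 0.28 for Il1r1, -0.03 to 0.50 for Il1r2 and -0.39 to 0.08 for Il33 in spleen, 0.00 to 0.10 for Casp1 in node, and -0.12 to 0.03 for Il1rap between tissues in DKO/hA-I. Among log2 ratios the omissions gave -0.02 to 0.48 for Il1b to Il1rn and -0.45 to 0.62 for Il1r2 to Il1r1 between genotypes in spleen, and -0.48 to 0.06 for Il1r2 to Il1r1 between tissues. Il1r2 rests on as few as 20 counts in a library, which limits its precision.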
